A study of Mus musculus with 2 samples.

Results

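Cyr61, Ankrd1, Clu, Anxa3 and Sprr1a are 5 genes known from the response to the co-activator YAP and from repair of the gut epithelium. They were taken by name from the 13373 genes of the deposited table, and all 5 were present. The cells came from intestinal organoids with mutant Apc, grown from C57Bl mice of 3 to 4 months. Organoids are small three-dimensional cultures in which epithelial stem cells and their descendants grow together. One library was treated with DBZ, an inhibitor of gamma-secretase that stops Notch receptors from being activated, and the other with the solvent DMSO. A protocol text shared by both libraries lists 300 nM 4-OH-tam and 10 uM DBZ, so DBZ exposure was taken from the sample titles, and cells named CTRL were read as DMSO and cells named GSI as DBZ. The labels name neither the driver of recombination nor the Apc allele, nor how many mice were used.

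There was 1 library per group, with 1241 DBZ cells and 968 DMSO cells. No test between treatments was possible, and every value compares these 2 libraries. Intervals are 95% counting intervals and say nothing about the spread between cultures. Median depth was 10901 UMIs per cell with DBZ and 11183 with DMSO (unique molecular identifiers, each standing for 1 captured transcript). Mitochondrial transcripts made up a median of 4.68% and 4.40% of UMIs, and 3 cell barcodes occurred in both libraries. All 7 epithelial markers checked had UMIs in both libraries. Of the defining fibroblast, immune and endothelial markers, Col1a1, Ptprc and Cdh5 have no row in the table used here, while Vim had 5.73 per 10000 UMIs with DBZ and 11.7 with DMSO. The only listed immune marker with a row, Cd68, had 0.0939 with DBZ and 0.132 with DMSO. Pecam1, the only listed endothelial marker with a row, had 0.0293 and 0.0239.

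YAP and its relative TAZ are co-activators held in the cytoplasm by the Hippo kinases. When released, they enter the nucleus and bind TEAD factors on target genes such as Cyr61 and Ankrd1. In the injured gut, YAP activity accompanies a fetal-like repair state in which crypt stem cell genes are low and genes such as Clu, Anxa1 and Ly6a are high. Cyr61 encodes a secreted matrix protein of the CCN family, and Ankrd1 an ankyrin repeat protein of the nucleus and the muscle sarcomere. Clu encodes clusterin, a secreted chaperone that marks the revival stem cells of damaged crypts. Anxa3 is a membrane-binding annexin, and Sprr1a a small proline-rich protein of the cornified envelope that is also made by stressed epithelia.

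Promoter sequence is shown for the members with a match to the TEAD or the AP-1 motif, because these 2 motifs are the ones most tied to YAP target genes. Sequences are RefSeq's on GRCm38.p6, minus strand, and were available for 3 of the 5 members. For Ankrd1 only 30 bases round each match are shown. Capitals mark the TEAD motif GGAATG for Cyr61, where it lies on the opposite strand, and for Ankrd1. For Sprr1a they mark the AP-1 motif TGANTCA.
Cyr61, chr3:145649986-145650235: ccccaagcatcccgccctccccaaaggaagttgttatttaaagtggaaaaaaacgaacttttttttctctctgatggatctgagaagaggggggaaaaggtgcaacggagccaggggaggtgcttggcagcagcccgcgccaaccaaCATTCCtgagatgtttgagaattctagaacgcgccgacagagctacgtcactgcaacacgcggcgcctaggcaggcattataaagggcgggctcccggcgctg
Ankrd1, chr19:36120037-36120066: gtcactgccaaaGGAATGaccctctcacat
Ankrd1, chr19:36119950-36119979: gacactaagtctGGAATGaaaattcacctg
Sprr1a, chr3:92485896-92486131: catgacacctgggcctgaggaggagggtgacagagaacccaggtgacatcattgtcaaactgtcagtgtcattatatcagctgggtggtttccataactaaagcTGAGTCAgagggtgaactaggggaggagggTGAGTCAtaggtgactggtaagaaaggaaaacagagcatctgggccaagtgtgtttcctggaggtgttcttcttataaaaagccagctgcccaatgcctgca

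The Cyr61 match began 103 bases before the RefSeq start. Those of Ankrd1 began 210 and 123 bases before it, inside the first exon of 1 longer GENCODE transcript. Both strands were searched over the 250 bases before the start. A GGAATG match was found in 12.6% of 32851 such windows, and 2 or more matches in 1.02%. Sprr1a had AP-1 matches at 146 and 116 bases before the start and no TEAD match. The AP-1 motif was found in 6.75% of windows, with 2 or more in 0.338%. The motif of the Notch factor RBPJ, TGGGAA, had 2 matches in the Ankrd1 window and none in the windows of Cyr61 and Sprr1a, against 21.6% of all windows with at least 1. No CArG box of the factor SRF was found in the 3 windows, and 1.47% of windows held one. A match describes the letters and does not show binding.

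The YAP target pair and Clu differed between the libraries in opposite directions. Levels below are means over cells of UMIs per 10000 UMIs of the cell, and changes are log2 of DBZ over DMSO with 0.05 added to both means. Cyr61 and Ankrd1 were lower in the DBZ library and Clu was higher, each by more than 2-fold. Anxa3 and Sprr1a were lower by less than that. Over the 12921 genes with UMIs in 1% or more of the DBZ or of the DMSO cells, 1.04% were at least 2-fold lower and 1.89% at least 2-fold higher, and the median change was 0.10. Of these genes 12 had a lower change than Cyr61 and 19 a lower one than Ankrd1, while 28 had a higher one than Clu.

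Cyr61 (chromosome 3, 145646976 to 145649981, minus strand, protein coding, named Ccn1 in GENCODE) averaged 3.255 per 10000 with DBZ and 12.56 with DMSO. The median cell had 1.36 and 9.02, and the highest cells 44.0 and 76.0. The median and the highest level were both lower with DBZ, and the ranges of the libraries overlapped. The log2 change was -1.93, and pooled UMIs (5095 against 15124) gave -1.88 with an interval of -1.92 to -1.83. Cells with UMIs made up 68.0% of the DBZ library (65.3 to 70.6%), and 94.3% of the DMSO library (92.7 to 95.7%). After every cell was thinned to 5000 UMIs, so that depth was equal, the shares were 52.5% and 87.7%. Cells with 10 or more Cyr61 UMIs after thinning were 32 of the DBZ and 249 of the DMSO library.

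Ankrd1 (chromosome 19, 36111961 to 36120099, minus strand, protein coding) was a rare transcript with a few very high cells. It averaged 0.1586 per 10000 with DBZ and 0.6533 with DMSO, and the median cell of both libraries had 0. The highest cells reached 30.8 and 37.1. The log2 change was -1.75, and pooled UMIs (230 against 922) gave -2.31, with an interval of -2.52 to -2.10. UMIs were seen in 61 DBZ cells (4.92%, interval 3.78 to 6.27%) and 126 DMSO cells (13.0%, 11 to 15.3%), or in 2.58% and 8.57% after thinning. The 5 highest cells gave 52.3% of the DBZ mean and 25.1% of the DMSO mean, and without them the change was -2.11.

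Clu (chromosome 14, 65968483 to 65981547, plus strand, protein coding) averaged 4.404 per 10000 with DBZ and 0.8595 with DMSO. The median DBZ cell had 0.935 and the highest 97.6, against 0 and 65.9 with DMSO. Both the number of cells with Clu and the level within them were higher with DBZ: cells with at least 1 UMI had a median of 2.20 with DBZ and 1.28 with DMSO. The log2 change was 2.29, and pooled UMIs (7165 against 1233) gave 2.23, with an interval of 2.15 to 2.32. Shares of cells were 63.0% (60.3 to 65.7%) and 29.1% (26.3 to 32.1%), or 45.4% and 17.1% after thinning. After thinning, 10 or more Clu UMIs were seen in 86 DBZ cells and in 6 DMSO cells.

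Anxa3 (chromosome 5, 96793339 to 96845966, plus strand, protein coding) and Sprr1a (chromosome 3, 92483952 to 92485895, minus strand, protein coding) were each seen in a minority of cells. Anxa3 averaged 0.1117 per 10000 with DBZ and 0.1786 with DMSO, from UMIs in 5.16% (3.99 to 6.54%) and 9.40% (7.64 to 11.4%) of cells. Its highest cells had 16.8 and 12.7 per 10000. Pooled UMIs gave a log2 ratio of -0.81 (-1.03 to -0.59), against -0.50 for cell means. Sprr1a averaged 0.4101 and 0.5612, from UMIs in 8.06% (6.60 to 9.71%) and 13.6% (11.5 to 16.0%) of cells. Its highest cells had 81.8 and 102.0 per 10000, and the 5 highest cells gave 47.8% of the DBZ mean and 38.8% of the DMSO mean. Pooled UMIs gave -0.63 (-0.77 to -0.50), against -0.41 for cell means. For both genes the libraries differed more in the share of cells than in the top levels.

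**Figure D1:**
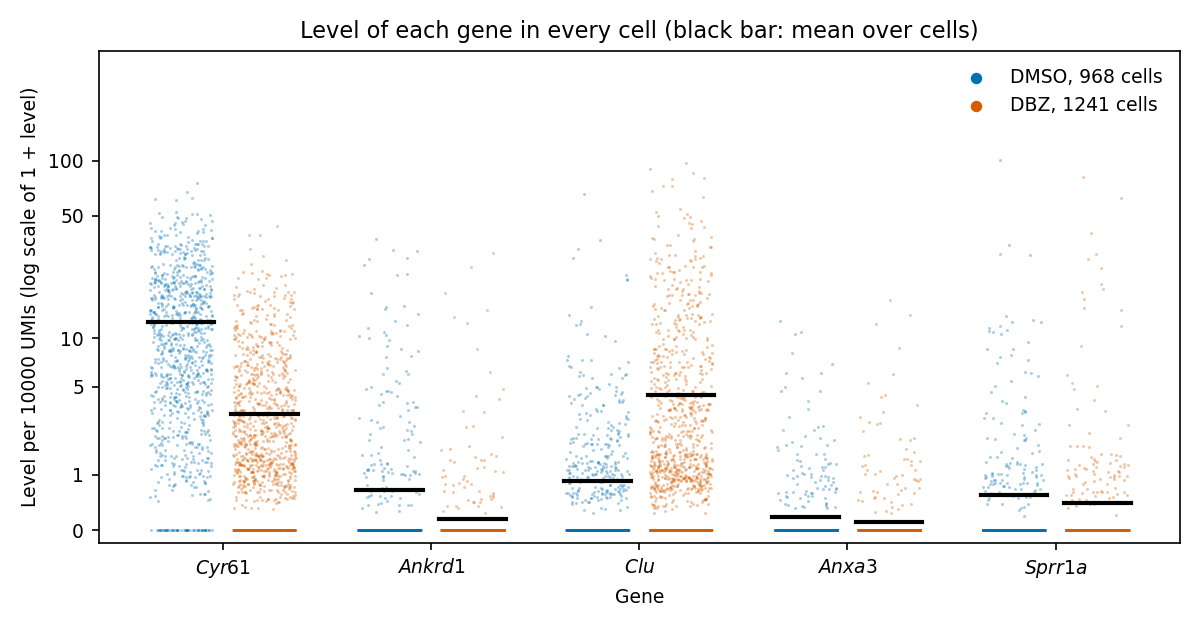
Each point is 1 cell, with its level per 10000 UMIs on a log scale of 1 + level for DMSO (blue, 968 cells) and DBZ (orange, 1241 cells), and black bars are means over cells. Cyr61 means are 12.56 (DMSO) and 3.255 (DBZ), Clu means 0.8595 and 4.404, and most cells of both libraries lie at 0 for Ankrd1, Anxa3 and Sprr1a.

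The other YAP targets lay on both sides of the all-gene median. Of 22 listed YAP and TEAD target genes, 19 were in the table, and 12 were higher and 7 lower with DBZ. The median change was 0.12, beside 0.10 over all 12921 genes, of which 8203 were higher and 4718 lower. These counts include Cyr61 and Ankrd1, and of the other 17 targets 12 were higher and 5 lower, with a median of 0.13. Besides Cyr61 and Ankrd1, only Gadd45a, a stress gene that p53 also activates, was at least 2-fold lower among them, with 1.113 against 2.42 per 10000 (-1.09). F3, the clotting receptor tissue factor, had -0.84, and Ctgf, the CCN relative of Cyr61, had -0.26. Ctgf rested on 90 DBZ and 112 DMSO UMIs, with a pooled log2 ratio of -0.62 (-1.04 to -0.21). Igfbp3, which binds insulin-like growth factors, was higher by 0.79, Tgfb2 by 0.78 and Rbms3 by 0.78. Nuak2, a kinase induced by YAP, had 0.54, Ccdc80 0.41 and Dock5 0.40. The counting intervals of 6 targets lay above 0 and those of 5, Cyr61 and Ankrd1 among them, lay below, beside 36.4% and 19.0% of all genes. Fjx1, counted as higher, had 24 DBZ UMIs and was listed at 0 in DMSO cells. The other targets, Amotl2 (0.03), Lats2 (0.23), Myof (0.12), Asap1 (0.13), Arhgef17 (0.11), Ptpn14 (-0.16) and Crim1 (-0.26), had counting intervals that included 0.

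The factors that act with YAP were also mixed. Yap1 itself averaged 0.5178 per 10000 with DBZ and 0.4039 with DMSO, a change of 0.32. Wwtr1, the gene of TAZ, had -0.44. Among the DNA-binding partners Tead1 had 0.68, Tead2 -0.15, Tead3 -0.01 and Tead4 0.04, and the co-factor Vgll4, which competes with YAP for TEAD, had 0.28. The intervals of Tead3 and Tead4 included 0. Of 22 measured Hippo kinases and regulators 17 were higher and 5 lower, with a median of 0.34, beside 8203 higher and 4718 lower of all genes. Frmd6 (1.27), Nf2 (0.91) and Wwc1 (0.88), all upstream activators of the Hippo kinases, had the highest changes, and the kinase Map4k4 had 0.61. Levels of mRNA do not give the activity of these proteins.

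**Figure D2:**
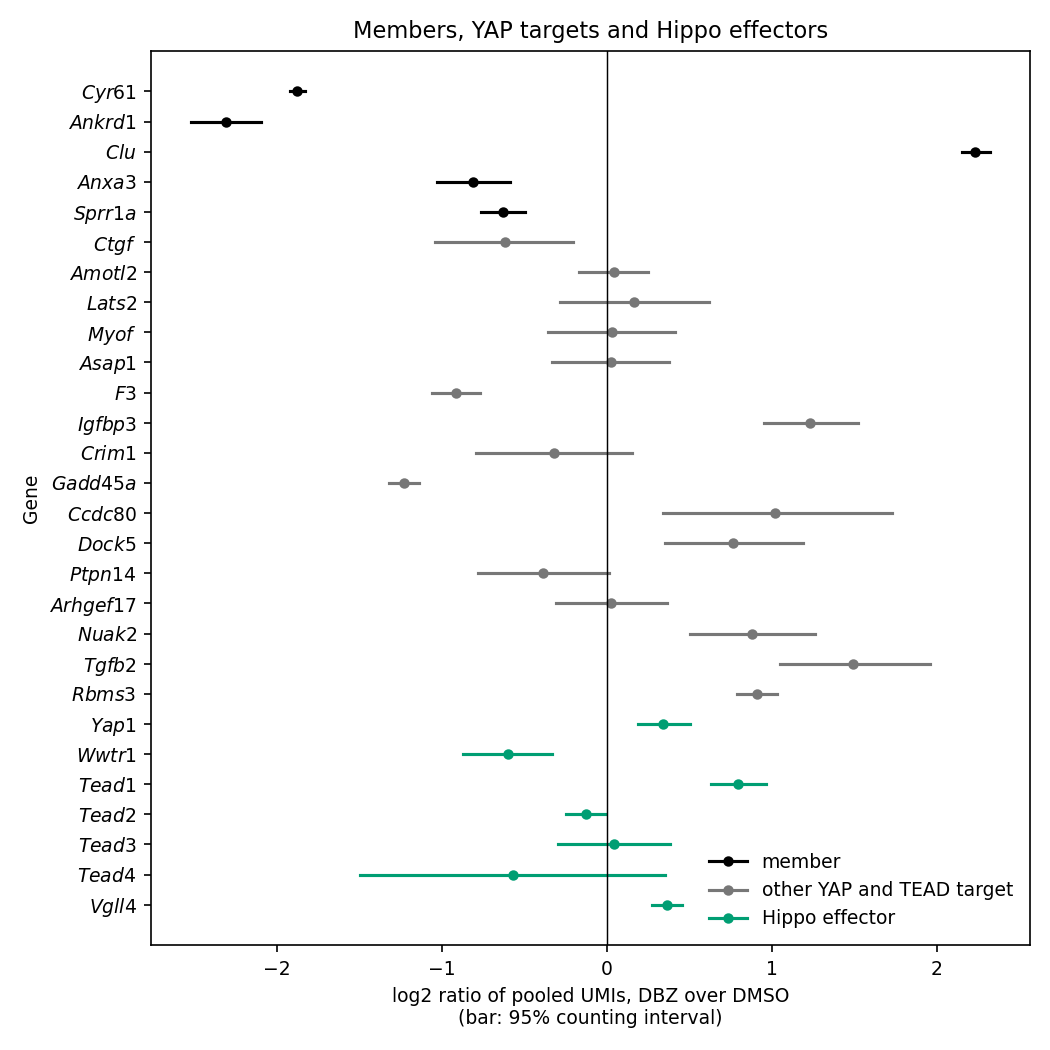
Points are log2 ratios of pooled UMIs, DBZ over DMSO, and bars are 95% counting intervals, for the 5 members (black), other YAP and TEAD targets with UMIs in both libraries (grey) and Hippo effectors (green). Clu lies at 2.23, Cyr61 at -1.88 and Ankrd1 at -2.31, while the other targets fall on both sides of 0.

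Immediate early genes, which are turned on within minutes by growth factors, stress and cell dissociation, differed in the same direction as Cyr61. Cyr61 itself belongs to this class as well as to the YAP targets. Of 22 listed immediate early genes 21 were lower with DBZ and 1 higher, with a median of -1.19, and 14 were at least 2-fold lower. Over all genes 4718 of 12921 were lower and 1.04% at least 2-fold lower. One of the 22 was listed at 0 in 1 library. Egr4 had -2.51, Arc -2.07 and Fos -1.98, and Jund, the most expressed over the cells of both libraries together, had -0.08. In DMSO cells alone Btg2 (10.13 per 10000) and Junb (10.01) were above Jund (7.878), and their changes were -1.04 and -1.24. Btg2 was named after its values were seen. SRF and actin genes, another output shared with YAP, were lower in 13 of 16 cases (median -0.32), led by Myl9 (-1.59), Fhl2 (-1.23) and Cnn2 (-1.04). Actg1, the most expressed over the cells of both libraries together, had -0.39. Heat shock genes had a median of -0.20, with Hspa1a at -0.97, Dnajb1 at -0.86, Hspa8 at -0.38 and Hsph1 at 0.57. Whether handling of the cells differed between the libraries was not tested.

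The 5 genes whose cell-to-cell pattern was most like that of Cyr61 included 4 such early-response genes. Likeness was the smaller of the correlations of log values over cells in the 2 libraries, among genes with UMIs in 5% or more of both DBZ and DMSO cells. These are descriptions over cells of 1 library each, which share depth. Atf3 had r = 0.38 over the 1241 DBZ cells and 0.36 over the 968 DMSO cells, Nr4a1 0.35 and 0.42, Junb 0.34 and 0.43, and Klf6 0.38 and 0.32. Myl12a, a myosin light chain, had 0.31 and 0.34. Over the same cells Cyr61 and Ankrd1 had r = 0.20 with DBZ and 0.14 with DMSO. Cells with Fos UMIs after thinning had 4.09 Cyr61 per 10000 with DBZ and 13.7 with DMSO, and cells without had 2.58 and 6.90. So Cyr61 was lower with DBZ in cells with Fos and in cells without. Clu showed the other order, with 3.52 in DBZ cells with Fos and 5.11 in those without.

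The genes most like Ankrd1 were Ier3 (r = 0.25 with DBZ and 0.24 with DMSO), an immediate early gene, and Edn1 (0.29 and 0.21), which encodes endothelin. Sorbs2 had 0.20 and 0.21, Pmaip1 0.22 and 0.18, and Cxadr 0.18 and 0.17. Edn1 was itself lower with DBZ, with a change of -1.60. Correlations of this size in so sparse a gene are weak.

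Cell states were obtained by clustering both libraries together, which gave 10 clusters. The members took part in the clustering, so their levels by cluster are descriptions. Only 3 clusters could be named from markers: cycling-like (cluster 2), enteroendocrine-like (cluster 3, also rich in the Paneth peptide Defa22) and Paneth-like (cluster 9). The other 7 are given by their leading genes. Clusters 4 (Amica1, Ifi27l2b, Sfrp5), 6 (Pmp22, Gdf15, Egr4) and 7 (Pnliprp2, Cited4) made up 21.6, 16.7 and 17.6% of the DMSO library and 1.77, 0.806 and 0.0806% of the DBZ library. Clusters 0 (Cyp2c55, Ptprt, Cyp2c68), 1 (Npy, Tmem255a, Ptn) and 8 (Nts, Lcn2, Ly6g6c) made up 25.6, 21 and 12.7% of the DBZ library and 3.51, 3.20 and 1.24% of the DMSO library. Cluster 5 (Sprr1a, Hmox1, Ero1l) took 5.0% of the DBZ and 14.3% of the DMSO library. Where nearly all cells of a cluster come from one treatment, the cluster may stand for that library and not for a cell state.

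Cyr61 was highest in the 3 clusters made up mainly of DMSO cells. Over the cells of both libraries it averaged 16.2 in cluster 4, 16.5 in cluster 6 and 17.2 in cluster 7, and between 1.05 and 6.50 in all others. These 3 clusters held 30.5, 18.3 and 18.1% of the Cyr61 UMIs of the DMSO library. The lowest level, 1.05, was in the enteroendocrine-like cluster, where Cyr61 was seen after thinning in 23.2% of its cells (17.7 to 29.5%) with DBZ at a median depth of 8761 UMIs. With DMSO the share there was 52.3% (36.7 to 67.5%) at 7963 UMIs. No cell type that must lack these genes is known here, so the shares in this cluster may hold both expression and free RNA. The shares differed between the libraries, and the background of free RNA was not measured. When the clusters were formed without the members and the listed YAP target and regenerative genes, the highest cluster mean was 17.6.

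Within clusters the Cyr61 difference was smaller than over all cells in 8 of the 9 clusters with at least 10 cells of each library. The pooled log2 ratio was -1.45 (-1.56 to -1.34) in the cycling-like cluster, with 3.27 per 10000 in 130 DBZ cells and 9.16 in 158 DMSO cells. It was -0.94 (-1.12 to -0.77) in cluster 4 and -0.73 (-0.90 to -0.56) in cluster 5. In clusters 0 (0.10, -0.17 to 0.37) and 6 (-0.12, -0.38 to 0.12) the intervals included 0. Only the enteroendocrine-like cluster had a larger difference, -2.49 (-2.82 to -2.16), with 0.638 in 211 DBZ cells and 3.00 in 44 DMSO cells. With the cells of these 9 clusters weighted to the cluster shares of the DMSO library, Cyr61 averaged 7.09 with DBZ and 11.6 with DMSO, a change of -0.70 in place of -1.93. This weighting leaves out cluster 7, which had 1 DBZ cell. Most of the weighted DBZ mean comes from clusters 4 and 6, which had only 22 and 10 DBZ cells, so the smaller change rests on few cells.

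Ankrd1 was highest in cluster 4, the Amica1 and Sfrp5 cluster, with 1.62 per 10000 in 22 DBZ cells and 1.48 in 209 DMSO cells. That cluster held 46.6% of the Ankrd1 UMIs of the DMSO library and 18.3% of those of the DBZ library. No Ankrd1 UMI was found in the 79 Paneth-like cells, which allows a share of cells with a UMI of up to 3.80% (3 counts of the total, counting error only) and does not show that these cells lack the gene. In clusters 4 and 5 the pooled ratios were -0.34 (-0.84 to 0.12) and -0.18 (-0.71 to 0.33). In the cycling-like cluster the ratio was -1.80 (-2.28 to -1.34), while cell means (0.424 and 0.574) gave a change of -0.40. The 5 highest cells gave 86.0% of the DBZ mean there and all of it in cluster 5, so both values rest on few cells. Without them the change in the cycling-like cluster was -1.45. In cluster 5 only 6.45% of the 62 DBZ cells had Ankrd1, so nothing was left to compare. Weighted to DMSO cluster shares, Ankrd1 averaged 0.871 with DBZ and 0.729 with DMSO, a change of 0.24, so the lower level over all cells turned into a slightly higher one. Most of this weighted DBZ mean comes from cluster 4, where 22.7% of the 22 DBZ cells had Ankrd1 UMIs, and cluster 6, where 10.0% of 10 cells, a single cell, had them. The reversal thus rests on very few cells.

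**Figure D3:**
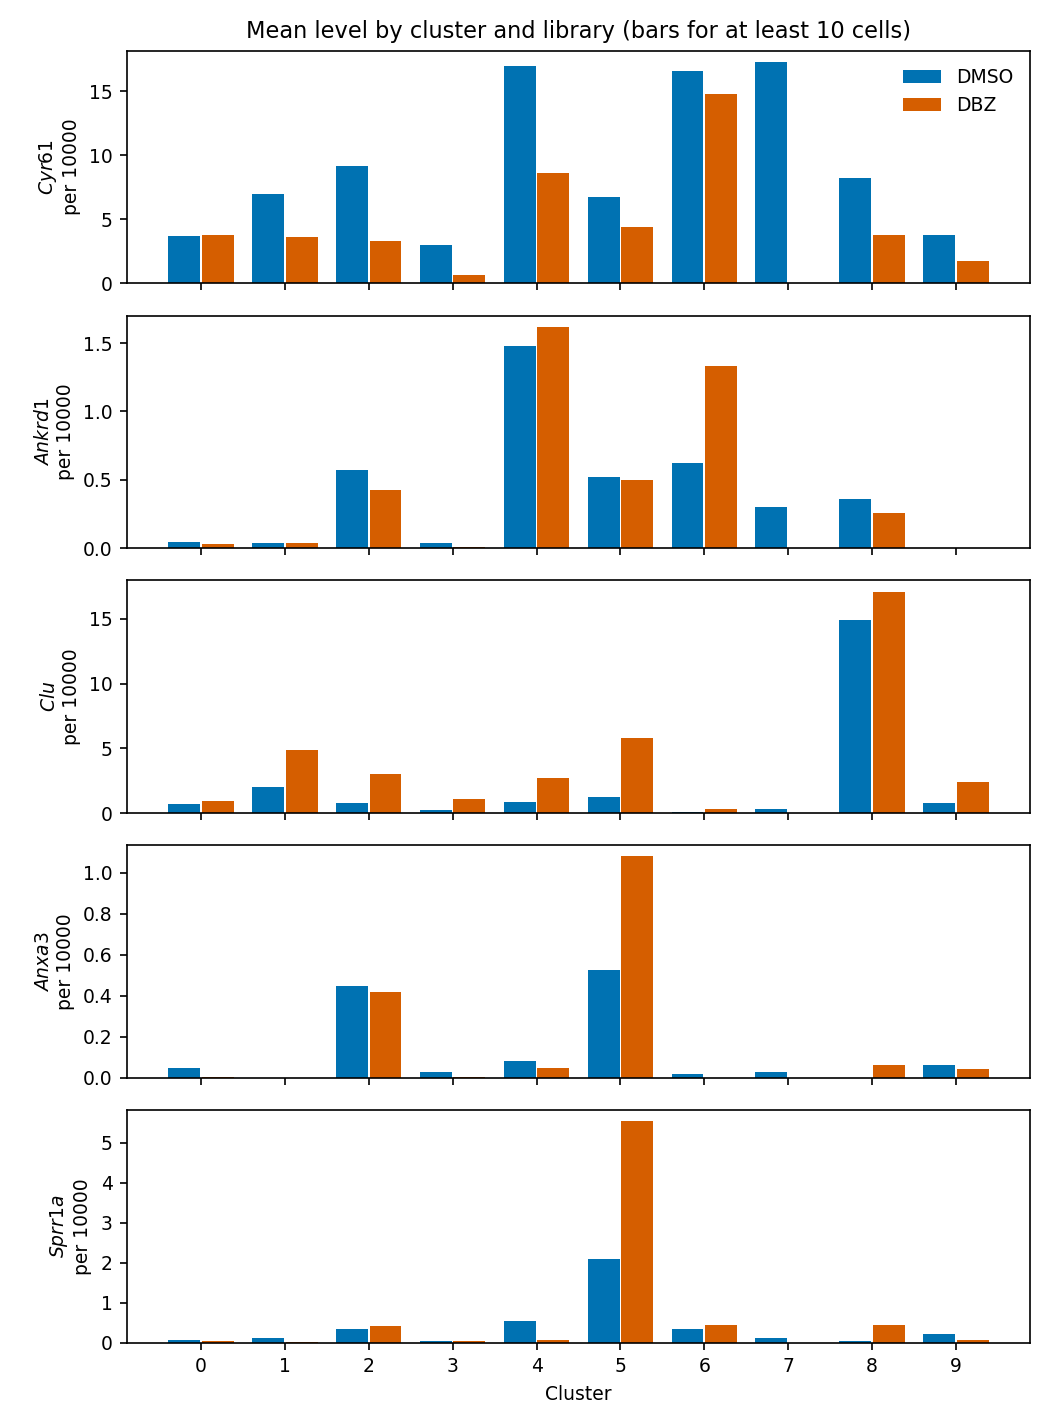
Bars are mean levels per 10000 UMIs in each cluster for DMSO (blue) and DBZ (orange) cells, drawn where a library has at least 10 cells there, with 1 panel and its own axis per gene. Clu peaks in cluster 8 (17.1 with DBZ, 14.9 with DMSO), Ankrd1 in cluster 4, Anxa3 and Sprr1a in cluster 5, and Cyr61 in clusters 4, 6 and 7.

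Clu was highest in cluster 8, led by Nts, Lcn2 and Ly6g6c, where 157 DBZ cells averaged 17.1 per 10000 and 12 DMSO cells 14.9. This cluster held 12.7% of DBZ cells and 47.2% of the Clu UMIs of that library. After thinning, 93.6% of its DBZ cells had a Clu UMI (88.6 to 96.9%). The lowest share was 27.0% in the enteroendocrine-like DBZ cells and 4.94% in the 162 DMSO cells of cluster 6, at median depths of 8761 and 9787 UMIs. A cluster led by the same genes remained when Clu and the other listed genes were left out of the clustering, with a mean of 18.9 over 156 cells.

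Clu was also higher with DBZ inside most other clusters. The pooled log2 ratio was 2.15 (1.94 to 2.37) in cluster 5, with 5.80 per 10000 in 62 DBZ cells and 1.22 in 138 DMSO cells. It was 1.73 (1.53 to 1.92) in the cycling-like cluster, where the levels were 3.02 and 0.75, and 1.38 (1.01 to 1.78) in the Npy-led cluster 1. Ratios of 1.98 (1.11 to 3.01) in enteroendocrine-like, 1.83 (1.13 to 2.62) in Paneth-like and 1.55 (1.21 to 1.89) in cluster 4 cells pointed the same way. In cluster 8 the ratio was 0.47 (0.26 to 0.68), and in clusters 0 (0.30, -0.25 to 0.89) and 6 (1.40, -0.99 to 3.15) the intervals included 0. Cluster 8 held 47.2% of the Clu UMIs of the DBZ library, and the background of free RNA was not measured. The part of free RNA in the ratios of the other clusters was not tested. Weighted to DMSO cluster shares, Clu averaged 2.95 with DBZ and 0.968 with DMSO, a change of 1.56. Levels of 14 of 17 listed Paneth markers in the table summed to 276.0 per 10000 with DBZ and 63.8 with DMSO, with 1 of them at 0 in DMSO cells. For 19 of 21 enteroendocrine markers the sums were 22.1 and 5.98, with 4 at 0 in DMSO cells. Without the enteroendocrine-like and Paneth-like clusters the Clu change was 2.50 and the Cyr61 change -1.72.

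**Figure D4:**
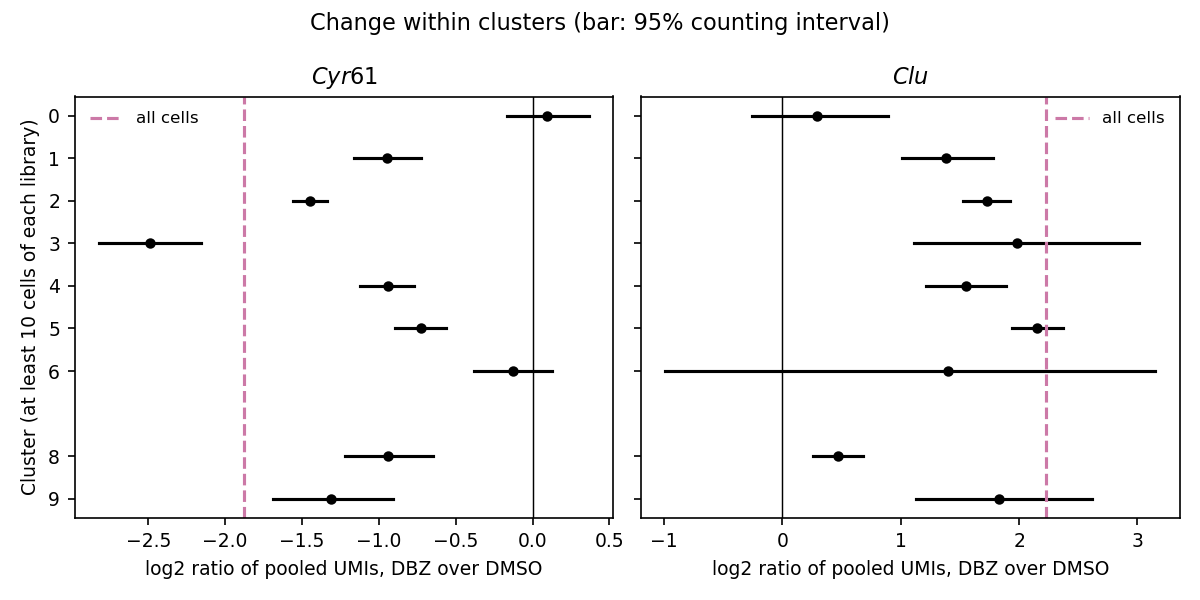
Points are log2 ratios of pooled UMIs, DBZ over DMSO, within each cluster that has at least 10 cells of each library, bars are 95% counting intervals and the dashed line is the ratio over all cells. Cyr61 lies between -2.49 and 0.10 and Clu between 0.30 and 2.15, with most clusters nearer to 0 than the dashed line.

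Genes most like Clu over cells included Ly6e (r = 0.51 with DBZ and 0.33 with DMSO), Cd74 (0.50 and 0.33), S100a11 (0.48 and 0.32) and S100a6 (0.47 and 0.32). Cd74 is the invariant chain of antigen presentation. Ly6e and Cd74 were higher with DBZ, by 1.09 and 1.03, while S100a11 (0.06) and S100a6 (0.15) were close to the median of all genes. Clu and Cyr61 had r = 0.08 with DBZ and -0.07 with DMSO. After thinning, Clu UMIs were in 17.1% of DMSO cells with Cyr61 and 17.6% of those without, and in 48.8% and 41.6% of DBZ cells. Hes1, a target of Notch, split the cells into groups with close Clu shares. DMSO cells with Hes1 UMIs after thinning had Clu in 16.7%, and those without in 17.8%, with overlapping intervals. With DBZ the same shares were 49.1% and 44.0%, whose intervals also overlapped. Cyr61 averaged 12.4 with Hes1 and 12.8 without in DMSO cells, and 4.35 and 2.86 in DBZ cells.

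Sprr1a and Anxa3 both had their highest mean level in cluster 5, led by Sprr1a, Hmox1 and Ero1l. Hmox1 encodes haem oxygenase, an oxidative stress enzyme, and Ero1l an oxidase of the endoplasmic reticulum induced by low oxygen. This cluster held 66.1% of the Sprr1a UMIs of the DBZ library and 65.3% of those of the DMSO library. For Anxa3 it held 51.7% and 38.7%, and the cycling-like cluster a further 37.4% and 52.0%. Over both libraries Anxa3 was seen in 19.5% of cluster 5 cells (14.2 to 25.7%) and 22.9% of cycling-like cells (18.2 to 28.2%). After thinning these shares were 12.0% and 12.5%. Cycling-like cells were deeper, with medians of 18828 UMIs with DBZ and 20496 with DMSO, against 13940 and 11707 in cluster 5. In cluster 5 Sprr1a averaged 5.53 per 10000 in DBZ cells and 2.09 in DMSO cells, and Anxa3 1.08 and 0.528. Both were thus higher with DBZ inside the cluster, although both were lower over all cells. The 5 highest cells gave 71.0% of the DBZ and 73.0% of the DMSO mean of Sprr1a there, and 76.9% and 65.1% of those of Anxa3. Without them the change of Sprr1a was 1.49 in place of 1.38, and that of Anxa3 0.41 in place of 0.97. Anxa3 then averaged 0.271 with DBZ and 0.191 with DMSO in cluster 5. In the cycling-like cluster, also without its 5 highest cells, it averaged 0.224 and 0.271. Weighted to DMSO cluster shares, Sprr1a had a change of 0.78 (1.16 against 0.654 per 10000) and Anxa3 of 0.36 (0.284 against 0.211). Most of both weighted DBZ means comes from cluster 5 and thus largely from its few highest cells.

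Anxa3 tracked Ly6a, the surface protein Sca-1 that marks the fetal-like repair epithelium. The correlation over cells was 0.67 with DBZ and 0.72 with DMSO, or 0.48 and 0.64 after thinning. Anxa1, another annexin of that state, followed with 0.57 and 0.62, then Ahnak (0.45 and 0.42), Cxcl16 (0.43 and 0.40) and Emp1 (0.38 and 0.50). Of 64 DBZ cells with Anxa3 UMIs 31 also had Ly6a, and of 91 DMSO cells 48. These were 41.9% of the Ly6a cells with DBZ and 44.0% with DMSO. The cells with both genes were deep, with medians of 18923 and 24070 UMIs, and 15 of the 31 and 29 of the 48 lay in the cycling-like cluster. Whether some of them are doublets was not tested beyond the doublet calls.

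Cells with Ly6a UMIs after thinning had higher mean levels of Anxa3, Sprr1a and Clu than the rest. In the DBZ library Anxa3 averaged 2.05 per 10000 in 42 such cells and 0.0438 in the other 1199, and in the DMSO library 2.08 in 54 cells and 0.0662 in 914. So the mean level of Anxa3 was close in Ly6a cells of both libraries. Its thinned share in them was 31.0% with DBZ (17.6 to 47.1%) and 46.3% with DMSO (32.6 to 60.4%), with overlapping intervals. The 5 highest cells of each whole library gave 41.5% of the DBZ and 28.5% of the DMSO mean of Anxa3, so these means lean on few cells. Sprr1a averaged 3.82 and 0.291 with DBZ and 2.53 and 0.445 with DMSO. Clu was seen after thinning in 64.3% of DBZ cells with Ly6a (48.0 to 78.4%) and 44.7% of those without (41.9 to 47.6%). With DMSO 55.6% of Ly6a cells had Clu (41.4 to 69.1%), beside 14.9% of the rest (12.6 to 17.4%). The mean level of Cyr61 in these cells was 3.07 against 3.26 in the DBZ library and 7.79 against 12.8 in the DMSO library. Its thinned shares were 66.7% against 52.0% with DBZ and 81.5% against 88.1% with DMSO, so level and share differed in order with DBZ. Ly6a cells were deeper (medians of 13336 and 17818 UMIs), and the part of depth in the mean levels was not tested.

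**Figure D5:**
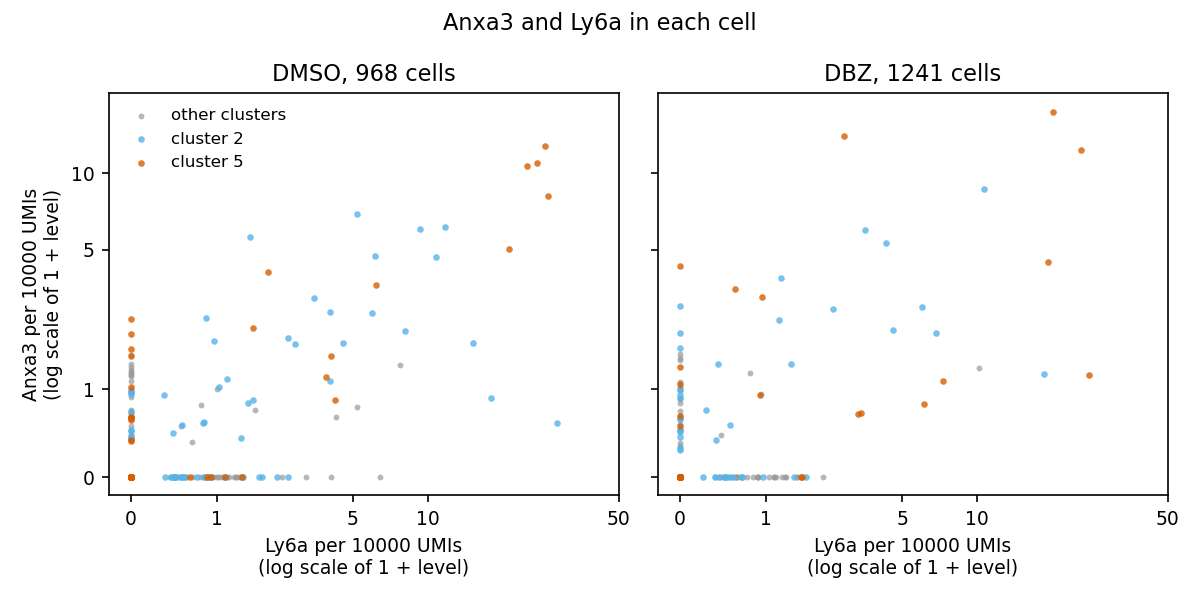
Each point is 1 cell, with Ly6a on the horizontal and Anxa3 on the vertical axis, both per 10000 UMIs on a log scale of 1 + level, for DMSO (left, 968 cells) and DBZ (right, 1241 cells). Cells with both genes, 48 with DMSO and 31 with DBZ, lie mostly in clusters 2 (light blue) and 5 (orange).

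The genes most like Sprr1a were Alcam (r = 0.31 with DBZ and 0.26 with DMSO), Sfn (0.25 and 0.25), S100a14 (0.36 and 0.25), Emp1 (0.30 and 0.25) and Cxcl16 (0.29 and 0.24). Sfn encodes the 14-3-3 protein stratifin of squamous and stressed epithelia. Sfn and S100a14 were lower with DBZ, by changes of -1.21 and -1.08. Emp1 and Cxcl16 were thus among the 5 genes most like Anxa3 and among the 5 most like Sprr1a. Anxa3 and Sprr1a themselves had r = 0.53 over DBZ cells and 0.23 over DMSO cells, the highest DBZ value among the 10 member pairs. In the DMSO library the highest was that of Clu and Anxa3, 0.29, and the other 8 pairs lay between -0.11 and 0.26 in both libraries. After thinning, Anxa3 and Sprr1a had r = 0.40 with DBZ and 0.16 with DMSO. Both were then held by 10 DBZ and 9 DMSO cells, where the product of their shares would give 1.4 and 4.11 cells. These values rest on few cells.

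The wider families of these genes held members on both sides of 0. Of 21 measured fetal and regenerative genes, Clu, Anxa3 and Sprr1a included, 11 were higher and 10 lower, with a median of 0.04. Clu was the only one at least 2-fold higher and Areg, a ligand of the EGF receptor (-1.48), the only one at least 2-fold lower. Ly6a had -0.98 and S100a6, the most expressed over both libraries, 0.15. Of 9 annexins 6 were higher, among them Anxa4 (0.41), the most expressed over both libraries, and Anxa6 (0.62). Anxa10, with 27 DBZ UMIs, was listed at 0 in DMSO cells. Among 4 small proline-rich genes Sprr2a3 had -0.82, Sprr2b -0.23 and Sprr2a1 0.05. Reads of the closely similar Sprr2a copies may be hard to tell apart, so these values are uncertain.

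Few cells held many members together, and Ankrd1, Anxa3 and Sprr1a were each seen in a minority of cells. All 5 genes had UMIs in 5 DBZ cells and 8 DMSO cells, and none of them in 170 DBZ cells (13.7%) and 33 DMSO cells (3.41%). Exactly 1 member was found in 36.7% of DBZ and 53.7% of DMSO cells, and 2 members in 39.2% and 27.8%. These counts were not thinned, so deep cells weigh more. They were not set against the counts that the share of each gene alone would give. Whether the members occur together more or less often than their shares imply is thus not shown by them.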

How the data were processed

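The table deposited by the authors holds natural log values of 2209 cells for 13373 genes. The submitters' processing notes name Cell Ranger 2.1.1, Seurat and the mm10 build. No filter on cells or genes is stated in the labels. In every cell exp(value) - 1 summed to 10000, and all 7553435 values above 0 were whole multiples of 1 step per cell within 0.01, which gave back the UMIs. Columns named CTRL were read as DMSO and those named GSI as DBZ. No count model was run. Code was tested on simulated cells.

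Changes use cell means with a pseudocount of 0.05 per 10000, which shrinks low genes. Pooled ratios have exact conditional and shares exact Clopper-Pearson 95% intervals, which cover counting error only. Cells were clustered on the 2000 most variable genes, 30 components and 15 neighbours with Leiden (igraph 0.11.9, resolution 1). A cluster was named where at least 3 of its top 10 genes were markers of 1 class. Scrublet (scanpy 1.11.5) marked 2 DBZ and 6 DMSO cells as doublets, so few that doublets remain possible. The members, gene lists and rules were chosen with earlier results of these data known. Named genes are the members, list members (all of 4 lists, otherwise the 3 largest changes and the most expressed), 5 genes most like each member, 3 leading genes per cluster and the genes used to split cells, of which 2 are not reported here. Col1a1, Ptprc and Cdh5 were named as absent markers, and Vim, Cd68 and Pecam1 as the listed markers of those classes with a row.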

Additional observations from a re-analysis of the deposited data

Results flagged for a closer look

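For 3 members the change within clusters pointed in opposite directions, with counting intervals on either side of 0. The difference between clusters was not tested, since there is 1 library per group. Sprr1a had a pooled log2 ratio of 0.60 (0.43 to 0.76) in cluster 5, from 545 DBZ and 676 DMSO UMIs, and -2.56 (-4.86 to -0.99) in cluster 4, from 3 and 143. Anxa3 had 0.82 (0.49 to 1.16) in cluster 5 and -0.50 (-0.85 to -0.16) in the cycling-like cluster 2, where cell means gave -0.09. Ankrd1 had 1.22 (0.27 to 2.06) in cluster 6, from 13 UMIs that all lay in a single one of the 10 DBZ cells, and -1.80 (-2.28 to -1.34) in cluster 2.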

How the results depend on the processing

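No paired analysis was possible because each group had 1 library. Weighting to DMSO cluster shares, which leaves out cluster 7, gave -0.70 for Cyr61 and 1.56 for Clu, and reversed Ankrd1 (0.24), Anxa3 (0.36) and Sprr1a (0.78). In this weighting clusters 4 and 6 count by their many DMSO cells but had only 22 and 10 DBZ cells. Most of the weighted DBZ means of Sprr1a and Anxa3 comes from cluster 5. There the 5 highest DBZ cells gave 71.0% and 76.9% of the mean, so these reversals rest largely on few cells. Every other alternative run kept the direction of all 5 members. Pooled UMIs gave -1.88 for Cyr61, -2.31 for Ankrd1, -0.81 for Anxa3 and -0.63 for Sprr1a. A pseudocount of 0.5 gave -1.80, -0.81, 1.85 (Clu), -0.15 and -0.22 in member order, and 0.01 gave -1.98 for Ankrd1. Without the 5 highest cells of each library Ankrd1 had -2.11, Clu 2.52 and Sprr1a -0.58. Without secretory clusters Cyr61 had -1.72, Clu 2.50 and Sprr1a -0.19. Thinning gave -0.84 for Anxa3. Centred on the median of all genes, Cyr61 had -2.04 and Clu 2.18. Counts of genes at least 2-fold higher and lower, 244 and 134, were 894 and 336 with a pseudocount of 0.01, 46 and 22 with 0.5, and 857 and 394 from pooled UMIs. The median of the fetal and regenerative list was -0.01 over members in at least 5% of cells, in place of 0.04. Without the 5 highest cells of each library in cluster 2, an alternative chosen after seeing the data, Sprr1a had -0.02 there in place of 0.19. The cause of these shifts was not tested. For Anxa3, Ankrd1 and Sprr1a depth limits what a single cell shows.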
